A study of Mus musculus with 24 samples.

Results

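Gene expression around subjective dawn was compared within retinal pigment epithelium (RPE) of Per mutant mice, 3 libraries taken at circadian time (CT) 1 against 3 taken at CT22. These are 6 of the 24 libraries of the series, chosen by their labels alone: genotype Per1-/-Per2Brdm1 and time point CT1 or CT22. The other 18 libraries hold the mutant at CT19 and CT10 and wild type mice at all 4 times. All animals were male, 6 weeks old and of the strain C57BL/6/J x 129 SvEvBrd, and the layer was taken from frozen eyes by laser capture. KO_CT22 consists of replicates 1and4, 2 and 3, and KO_CT1 of replicates 1, 4and6 and 5, where a joined number marks a library made from 2 pooled eyes and each other library comes from 1 eye. Whether the eyes belonged to separate animals is not stated in the labels. The p-values therefore measure the spread between libraries, which may be technical in part. The genotype label names alleles of Per1 and Per2 alone, shared by both groups, with no driver or cell type that would limit them.

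The circadian clock is a loop in which BMAL1 (gene Arntl) and CLOCK bind E-box sequences and switch on Per and Cry genes, whose proteins then block BMAL1 and CLOCK. A connected loop runs through the nuclear receptors REV-ERB (Nr1d1, Nr1d2), which repress Arntl, and ROR, which activate it, and a further one through D-box binding factors such as DBP, TEF and HLF. The RPE is the pigmented layer behind the photoreceptors: it recycles the visual pigment's retinoid, carries nutrients from the choroid and engulfs the outer segment tips that rods shed each day, with a burst near dawn. Per1 and Per2 are the light and clock responsive repressors of the loop, and the series asks what their alteration does to this daily rhythm.

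No gene changed between CT22 and CT1 in the mutant libraries at an adjusted p under 0.05, 0 of 20275 genes tested (0%), higher or lower. Testing used the quasi-likelihood method of edgeR, adjusted after Benjamini and Hochberg, and the lowest adjusted p was 0.108, shared by 12 genes. At an unadjusted p under 0.05 there were 3393 genes (16.7%), of which 1177 lay higher at CT1 (5.81%) and 2216 lower (10.9%). The values in CPM (read counts scaled to a common library size) of the 2 groups did not overlap in 1238 genes with all CT1 libraries above (6.11%) and 2007 with all below (9.90%). DESeq2 on the same counts passed 407 genes, 283 of them lower at CT1. The median log2 difference over all genes was -0.02. Differences are CT1 minus CT22 throughout, so a negative value is lower at CT1, and values by library are given in the order KO_CT22 1and4, 2 and 3, then KO_CT1 1, 4and6 and 5.

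The count of 0 depended on which libraries and genes were included. It became 771 (231 higher, 540 lower) without KO_CT22 replicate 1and4, 147 (8 higher, 139 lower) without KO_CT22 replicate 3 and 5 without KO_CT1 replicate 4and6. It stayed at 0 without KO_CT22 replicate 2, KO_CT1 replicate 1 or KO_CT1 replicate 5, at a lowest adjusted p of 0.883, 0.235 and 0.392. The genes below are therefore described by their values in each library, and none is called changed.

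**Figure D1:**
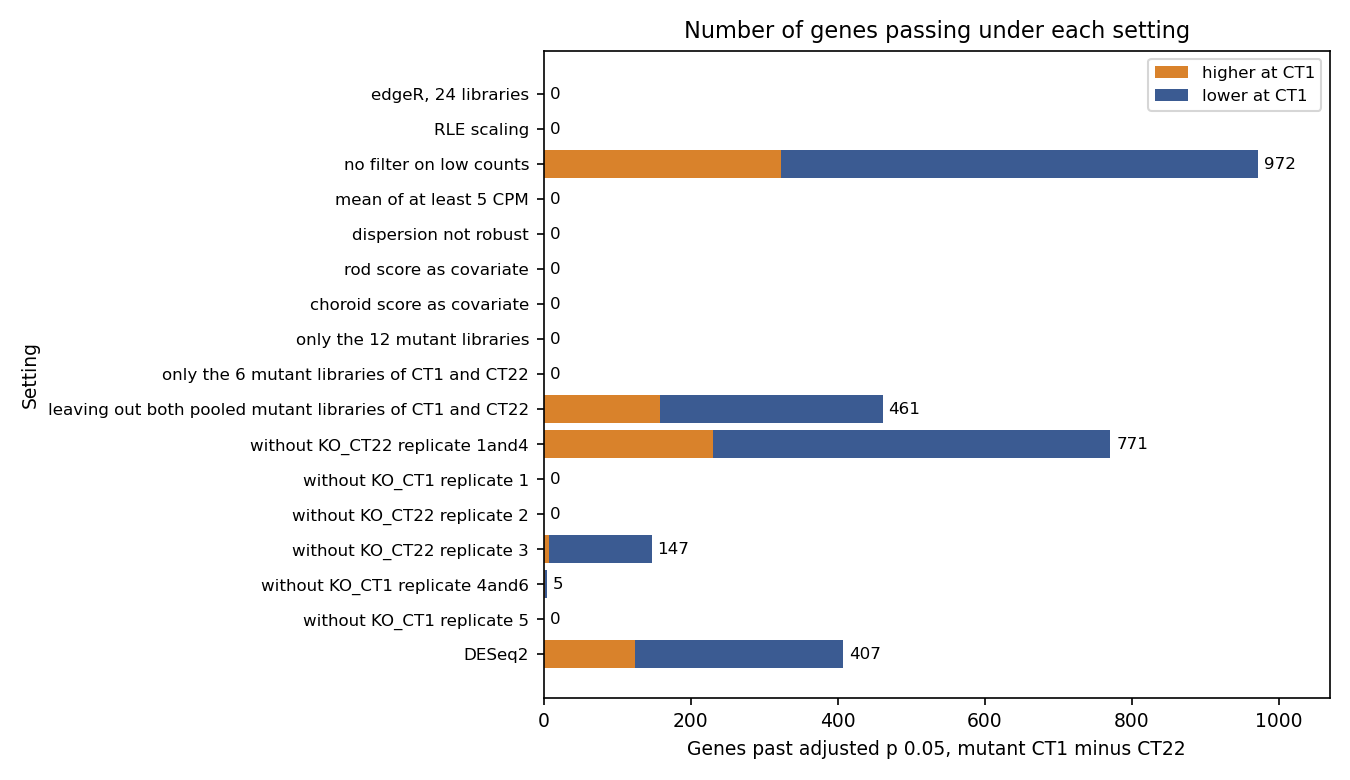
Bars count genes past an adjusted p of 0.05 for mutant CT1 minus CT22 (x axis) under each setting (y axis), split into higher and lower at CT1; all 24 libraries and edgeR apply unless the setting says otherwise. The count is 0 in the first bar and reaches 771 when KO_CT22 replicate 1and4 is left out and 972 with no filter on low counts.

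The libraries held RNA of neighbouring cells beside that of the RPE, and rod genes were the most abundant of these. Total counts of the 6 libraries ran from 16245067 to 29564156, with 19030 to 23101 genes detected. Of the RPE markers, Tfec was at 0 in KO_CT22 replicate 1and4 and KO_CT1 replicate 1. The summed level of the 25 RPE identity genes was 34487, 34669 and 60849 CPM at CT22 and 41012, 43140 and 29772 CPM at CT1. The 24 rod genes summed to 59406, 124250 and 39825 CPM at CT22 and to 36938, 33432 and 39045 CPM at CT1. KO_CT22 replicate 2 stood apart with the highest rod level of the 6. Over all genes it was not the only library at the extremes: it had the highest value of the 6 in 25.6% of genes and the lowest in 22.9%, KO_CT1 replicate 5 had 23.8% and 21.8%, and KO_CT1 replicate 1 had 13.5% and 24.3%. The other 3 libraries had between 9.38% and 15.7% at either end. In wild type the rod sums were lower at CT22 than at CT1, from 23775 to 51336 CPM at CT22 and from 75116 to 104700 CPM at CT1. In bulk samples such as these, fewer cells of a type and less RNA per cell cannot be told apart. Of 210 named genes, the log2 difference was smaller by over 1.5 times without KO_CT22 replicate 2 in 68 and had the other sign in 11. With the rod score of each library as a covariate these counts were 101 and 20. That score ran from 9.84 to 11.35 at KO_CT22 and from 9.58 to 9.74 at KO_CT1. As the groups do not overlap in it, the covariate fit cannot fully separate rod content from time, here or below.

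**Figure D2:**
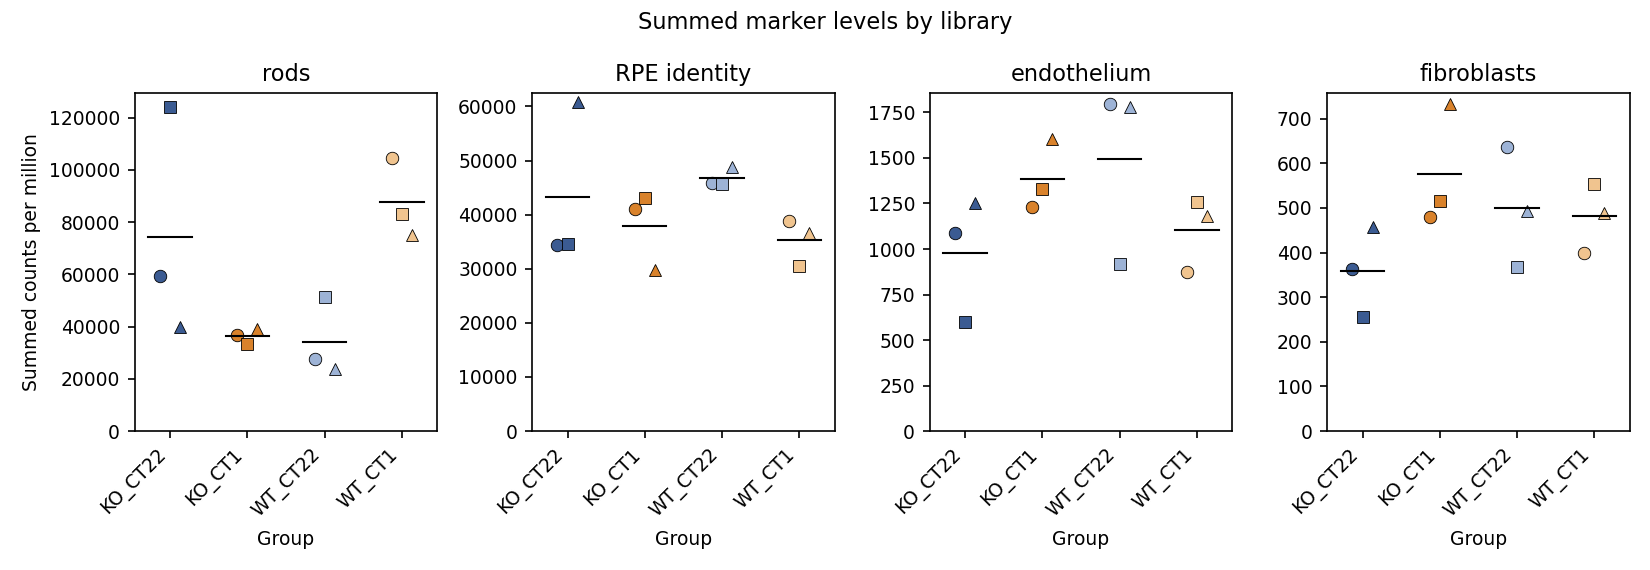
Summed CPM of rod, RPE identity, endothelium and fibroblast markers in each library; circle, square and triangle are the libraries of a group in the order of their replicate names (KO_CT22 1and4, 2, 3; KO_CT1 1, 4and6, 5) and lines are group means. KO_CT22 replicate 2 has the highest rod sum, 124250 CPM, and the lowest endothelium sum of the mutant libraries, 600.1 CPM.

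Per1 and Per2, the targeted genes, did not pass and had overlapping groups in the mutant. Per1 (ENSMUSG00000020893; plus strand of chromosome 11 from 69095217 to 69109960, GRCm38) had 176, 114.6 and 88.3 CPM at CT22 and 113.6, 127.9 and 252 CPM at CT1, so the groups overlapped and the highest value was in KO_CT1 replicate 5. Its difference was log2 0.38 (SE 0.32; adjusted p 0.587), and it became log2 -0.07 without that library. Per2 (ENSMUSG00000055866; minus strand of chromosome 1 from 91415982 to 91459324, GRCm38) was at 142, 76.5 and 98.5 CPM at CT22 and 109.7, 124.7 and 153 CPM at CT1, a difference of log2 0.29 (SE 0.30; adjusted p 0.691) with overlapping groups. Both genes had more reads in the libraries labelled mutant than in wild type. In wild type, Per1 was at 38.9 ± 12.5 CPM (SD, n = 3) at CT22 and 40.3 ± 5.13 CPM at CT1, and Per2 at 18.1 ± 8.72 and 15.5 ± 5.90 CPM, below the libraries labelled mutant at either time. A count summed over a gene's exons does not show which exons hold the reads, so these values do not check the labels.

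Among the 15 clock targets of E-boxes and D-boxes, none passed, and the list as a whole lay where all genes lay. Its median was log2 0.06 against -0.02 over all genes, with 9 members above 0 and 6 below. At an unadjusted p under 0.05, 1 was higher (Per3) and 3 were lower (Usp2, Nr1d1 and Cry1), against 5.81% and 10.9% of all genes, and with the rod covariate 0 of 15 were at that level. Per3, a Per paralog outside the core repressor pair, was at 185, 99.4 and 93.4 CPM at CT22 and 150.1, 154 and 289 CPM at CT1, log2 0.65 (SE 0.26; adjusted p 0.204). The groups overlapped and KO_CT1 replicate 5 was highest by a wide margin. Without that library the difference was log2 0.27, and Per3 passed without KO_CT22 replicate 1and4, at log2 1.04.

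Usp2 and Nr1d1 were the 2 of 15 clock targets whose groups did not overlap, both lower at CT1. Over all genes, 9.90% had all CT1 libraries below. Usp2, a deubiquitinase of clock proteins (ENSMUSG00000032010; plus strand of chromosome 9 from 44067021 to 44095627, GRCm38), was at 136, 156 and 114.6 CPM at CT22 and 78.9, 73.9 and 83.1 CPM at CT1. Its difference was log2 -0.78 (SE 0.23; adjusted p 0.137), against log2 -0.65 without KO_CT22 replicate 2 and log2 -0.32 with the rod covariate. It passed under 1 of 16 alternative settings. Nr1d1, the gene of REV-ERBα (ENSMUSG00000020889; minus strand of chromosome 11 from 98767932 to 98775333, GRCm38), was at 190.1, 207 and 168 CPM at CT22 and 149, 144 and 142 CPM at CT1, log2 -0.38 (SE 0.15; adjusted p 0.199). It overlaps Thra on the other strand, and whether the counting used strand is not known here, so its reads cannot be assigned to 1 of the 2 genes. In both genes every CT1 library sat below every CT22 library, while wild type values lay the other way, at log2 0.99 for Usp2 and log2 0.67 for Nr1d1. The difference between genotypes passed for both, at log2 -1.77 (SE 0.33; adjusted p 0.00724) for Usp2 and log2 -1.04 (SE 0.21; adjusted p 0.0101) for Nr1d1. Both were singled out by their mutant groups, which are part of that test, so it is no separate support. With the rod covariate 0 genes passed for the genotype difference, against 1526 without it.

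Most other members of the list had overlapping groups. Dbp, the D-box activator, was at 326, 360.0 and 479 CPM at CT22 and 359, 408 and 370.0 CPM at CT1, log2 -0.03 (95% interval -0.46 to 0.39). Tef, a related D-box factor, was at 429.8, 415 and 419 CPM at CT22 and 413, 477 and 481 CPM at CT1, log2 0.12 (95% interval -0.21 to 0.45). All 6 libraries lay close together for Tef. The intervals also held 0 for Nr1d2 at log2 -0.06 (95% interval -0.37 to 0.24), for the DEC repressor Bhlhe41 at log2 0.05 (95% interval -0.27 to 0.36) and for the repressor Cry2 at log2 -0.05 (95% interval -0.41 to 0.30). Cry1, its paralog, was at 48.2, 80.5 and 49.6 CPM at CT22 and 50.4, 34.7 and 35.2 CPM at CT1, log2 -0.57 (SE 0.24; adjusted p 0.232), with the highest level in KO_CT22 replicate 2 and overlapping groups. It came to log2 -0.26 without that library and to log2 -0.10 with the rod covariate. Ciart, a repressor of CLOCK and BMAL1, was at 44.2, 22.9 and 30.1 CPM at CT22 and 20.3, 38.9 and 56.7 CPM at CT1, and its difference of log2 0.26 (95% interval -0.50 to 1.01) had a wide interval. Hlf (log2 0.06), Bhlhe40 (log2 0.24) and Wee1 (log2 0.28) did not pass either.

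**Figure D3:**
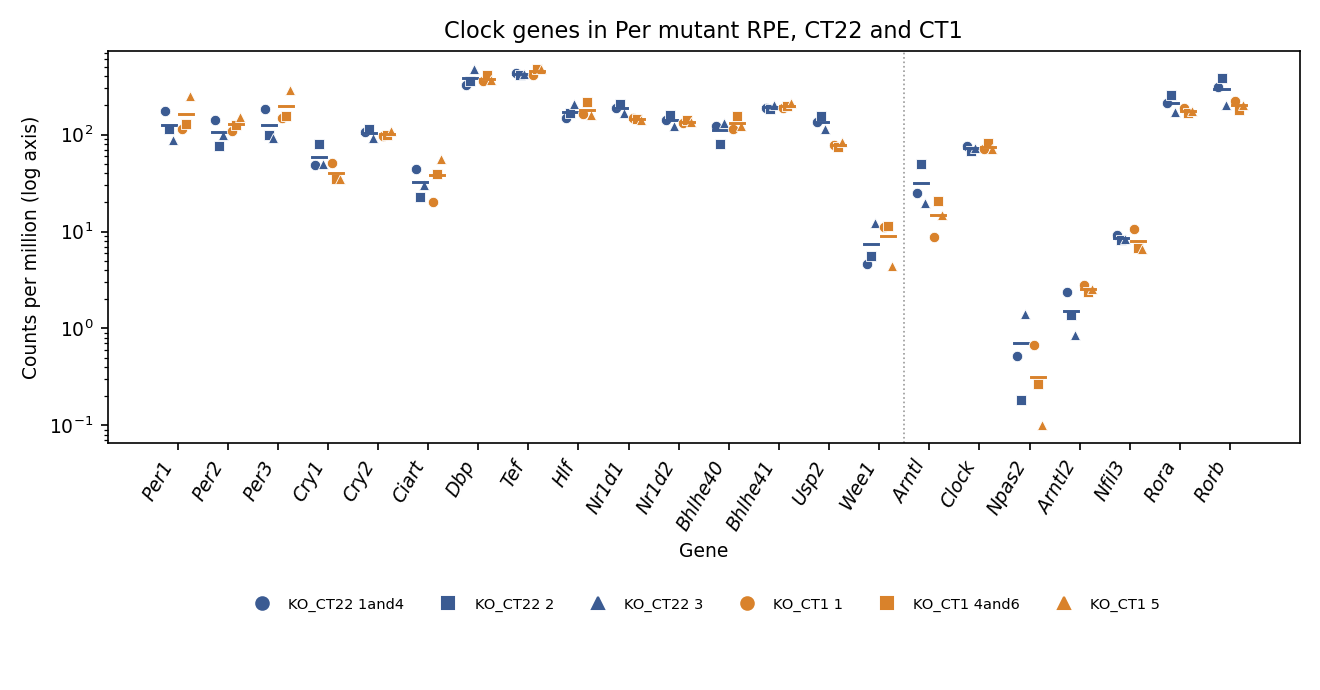
CPM (log axis) of clock genes in the 6 mutant libraries, CT22 in blue and CT1 in orange, with a symbol per library and a line at the group mean; genes right of the dotted line are activators and Bmal1-limb genes, and a level of 0 is drawn at 0.1. The groups separate for Usp2 (up to 156 CPM at CT22, 73.9 to 83.1 at CT1) and Nr1d1, and overlap for Per1, Per2 and Dbp.

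The promoters of 2 of these genes show the sequences that the clock's activators and D-box factors are known to bind. They are printed because these are the motifs on which the list rests, as the 250 bases before the RefSeq start site on GRCm38.p6, 5′ to 3′ on the gene's strand, with motif matches in capitals. Ciart (chr3:95882229-95882478, minus strand) holds 3 E-boxes, CACGTG, the nearest of which start 58 and 44 bases before the start site. Per3 (chr4:151044666-151044915, minus strand) holds 2 D-boxes, TTATGTAA, at 205 and 158 bases before it.
Ciart: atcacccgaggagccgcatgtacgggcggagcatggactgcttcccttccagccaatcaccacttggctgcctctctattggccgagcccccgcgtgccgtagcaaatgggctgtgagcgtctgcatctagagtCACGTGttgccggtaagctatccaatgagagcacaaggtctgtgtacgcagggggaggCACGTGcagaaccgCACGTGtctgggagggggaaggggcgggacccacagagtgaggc
Per3: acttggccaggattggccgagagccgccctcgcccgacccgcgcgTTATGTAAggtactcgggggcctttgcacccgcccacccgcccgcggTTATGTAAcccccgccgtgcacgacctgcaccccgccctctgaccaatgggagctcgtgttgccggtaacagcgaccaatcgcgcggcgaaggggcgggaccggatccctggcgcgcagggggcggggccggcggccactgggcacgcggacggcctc
Both strands were searched, and a match describes letters, not a bound site. Of the 15 genes, 12 had a promoter in the RefSeq table; 5 of the 12 held an E-box (Ciart, Bhlhe41, Cry1, Per1 and Tef), against 9.15% of 12877 tested genes with a promoter. The D-box was found in 1 of 12 (Per3), against 0.66%. The cAMP element TGACGTCA was found in 1 (Hlf), against 2.8%, and the heat shock element in none. Of the 5 genes with an E-box, Cry1 lay lower at an unadjusted p under 0.05 and the other 4 did not differ at that level.

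Arntl, which encodes BMAL1, had the widest difference of the abundant activator genes. It (ENSMUSG00000055116; plus strand of chromosome 7 from 113207465 to 113314126, GRCm38) was at 25.3, 50.02 and 19.9 CPM at CT22 and 8.73, 20.8 and 14.9 CPM at CT1, log2 -1.10 (SE 0.32; adjusted p 0.137). The groups overlapped, since KO_CT1 replicate 4and6 lay above KO_CT22 replicate 3. The difference shrank to log2 -0.59 without KO_CT22 replicate 2 and to log2 -0.31 with the rod covariate, and it passed under 4 of 16 alternative settings. The rod score is the mean log2(CPM + 1) of the 24 rod genes. Its DNA-binding partner Clock was at 76.6, 67.96 and 73.4 CPM at CT22 and 71.6, 82.3 and 70.9 CPM at CT1, log2 0.04 (95% interval -0.28 to 0.37). Rorb, an ROR receptor that photoreceptors also use, was at 308, 385 and 204 CPM at CT22 and 221, 180.4 and 199.9 CPM at CT1, log2 -0.58 (SE 0.27; adjusted p 0.277), and moved to log2 0.01 with the rod covariate. Rora (log2 -0.28) and the D-box repressor Nfil3 (log2 -0.10) did not pass. Npas2, an alternative partner of BMAL1, was under 1.5 CPM in all 6 libraries. Arntl2, a BMAL1 paralog, was at 2.36, 1.36 and 0.852 CPM at CT22 and 2.80, 2.38 and 2.54 CPM at CT1 with groups that did not overlap. In this list of 8, 0 passed, 2 were lower at an unadjusted p under 0.05 (10.9% of all genes) and the median was log2 -0.19. Of 12 kinases and ubiquitin ligases that act on clock proteins, 0 passed and 1 was lower at that level, Csnk2b, the regulatory subunit of casein kinase 2, at 84.6, 127.2 and 110.4 CPM at CT22 and 82.8, 73.1 and 73.5 CPM at CT1, log2 -0.49 (SE 0.16; adjusted p 0.149).

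The genes of lowest p among those lower at CT1 were a mixed group with no shared list among them. Ascc1, a subunit of the activating signal cointegrator complex (ENSMUSG00000044475; plus strand of chromosome 10 from 60002805 to 60099988, GRCm38), was at 34.4, 68.3 and 51.9 CPM at CT22 and 14.6, 30.4 and 20.8 CPM at CT1, log2 -1.24 (SE 0.24; adjusted p 0.108). All CT1 libraries lay below all CT22 libraries, by a small margin between KO_CT22 replicate 1and4 and KO_CT1 replicate 4and6. Ascc1 overlaps Anapc16 on the other strand. Zfp622, a zinc finger protein of ribosome maturation (ENSMUSG00000052253; plus strand of chromosome 15 from 25984366 to 25998481, GRCm38), was at 26.4, 33.3 and 31.6 CPM at CT22 and 12.4, 16.4 and 15.9 CPM at CT1, log2 -1.03 (SE 0.20; adjusted p 0.108). Its highest CT1 library lay well below its lowest CT22 library. Pgam1, the glycolytic phosphoglycerate mutase (ENSMUSG00000011752; plus strand of chromosome 19 from 41911923 to 41918660, GRCm38), was at 55.6, 104 and 49.7 CPM at CT22 and 15.1, 28.7 and 27.03 CPM at CT1, log2 -1.56 (SE 0.30; adjusted p 0.108), and near-identical copies in the genome may share its reads. Sdhaf1, an assembly factor of succinate dehydrogenase, was at 29.2, 61.5 and 33.5 CPM at CT22 and 18.9, 20.1 and 16.9 CPM at CT1, log2 -1.15 (SE 0.22; adjusted p 0.108), with KO_CT22 replicate 2 well above the others. Eipr1, which acts in endosome to Golgi traffic, was at 16.7, 22.8 and 20.5 CPM at CT22 and 10.02, 10.8 and 9.83 CPM at CT1, log2 -0.97 (SE 0.20; adjusted p 0.108), with a gap between groups and little spread within them.

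The other 5 of these 10 genes also had groups that did not overlap, at the same adjusted p of 0.108. All 10 were picked by p from these same libraries, so that separation is no separate support. Dusp14, a dual-specificity phosphatase, was at 13.6, 21.4 and 15.1 CPM at CT22 and 6.32, 6.25 and 6.93 CPM at CT1, log2 -1.36. Lrrc46, a leucine-rich repeat protein, was at 8.82, 15.4 and 8.14 CPM at CT22 and 2.69, 2.79 and 2.93 CPM at CT1, log2 -1.94. Its 3 CT1 libraries lay close together, below every CT22 library. Psmc5, an ATPase of the proteasome, was at 99.2, 183 and 128.2 CPM at CT22 and 72.5, 84.3 and 69.4 CPM at CT1, log2 -0.86. Pdcl3, a phosducin-like chaperone partner, was at log2 -0.99, and Pdzph1 at log2 -1.53. With the rod score as a covariate all 10 remained below 0, from log2 -1.17 for Lrrc46 to log2 -0.62 for Psmc5, with log2 -0.93 for Zfp622 and log2 -0.98 for Eipr1; none passed, and the lowest adjusted p of that fit was 0.7. Without KO_CT22 replicate 2 they ran from log2 -1.57 for Lrrc46 to log2 -0.56 for Psmc5, all below 0 and none passing. Each of the 10 passed under 5 or 6 of the 16 alternative settings, and Ascc1 in all 6 settings in which any gene did. These settings reuse the same libraries.

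Genes of lowest p among those higher at CT1 were low to moderate in level. Evc, a ciliary protein of hedgehog signalling (ENSMUSG00000029122; minus strand of chromosome 5 from 37289098 to 37336894, GRCm38), was at 14.2, 8.81 and 16.7 CPM at CT22 and 37.7, 21.1 and 27.6 CPM at CT1, log2 1.12 (SE 0.26; adjusted p 0.135), and overlaps Crmp1 on the other strand. Tmem200b (ENSMUSG00000070720; plus strand of chromosome 4 from 131921771 to 131923140, GRCm38) was at 5.59, 3.45 and 3.31 CPM at CT22 and 12.5, 9.26 and 11.2 CPM at CT1, log2 1.42 (SE 0.33; adjusted p 0.135). Both had CT1 libraries that all lay above the CT22 libraries. Aox3, an aldehyde oxidase, was at 3.29, 1.86 and 3.79 CPM at CT22 and 10.6, 4.09 and 16.6 CPM at CT1, log2 1.81 (SE 0.42; adjusted p 0.135), with KO_CT1 replicate 4and6 just above KO_CT22 replicate 3. Pik3cd, the delta catalytic subunit of phosphoinositide 3-kinase, was at 2.998, 2.23 and 2.56 CPM at CT22 and 10.8, 6.48 and 14.4 CPM at CT1, log2 2.03 (SE 0.50; adjusted p 0.135). Sh3pxd2a, a scaffold of podosomes, was at 39.5, 17.2 and 38.8 CPM at CT22 and 55.1, 59.6 and 84.1 CPM at CT1, log2 1.06 (SE 0.26; adjusted p 0.135). It was lowest in KO_CT22 replicate 2 and highest in KO_CT1 replicate 5. Slc38a2, an amino acid transporter, was at 49.8, 35.3 and 41.4 CPM at CT22 and 97.7, 44.7 and 101 CPM at CT1, log2 0.95 (SE 0.23; adjusted p 0.135), and was the only one of these 10 with overlapping groups. The remaining 4 were Paqr6 (log2 1.85), Parp10 (log2 1.00), the chromatin remodeller Srcap (log2 1.26) and the collagen receptor Ddr2 (log2 1.16), each at an adjusted p of 0.135. Without KO_CT22 replicate 2 the 10 lay between log2 0.79 for Sh3pxd2a and log2 1.96 for Pik3cd, and none passed. Of the promoters of these 20 genes, 16 were in the RefSeq table and none held an E-box or D-box. Over all tested genes with a promoter the shares were 9.15% and 0.66%, so few or none would be found among 16.

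**Figure D4:**
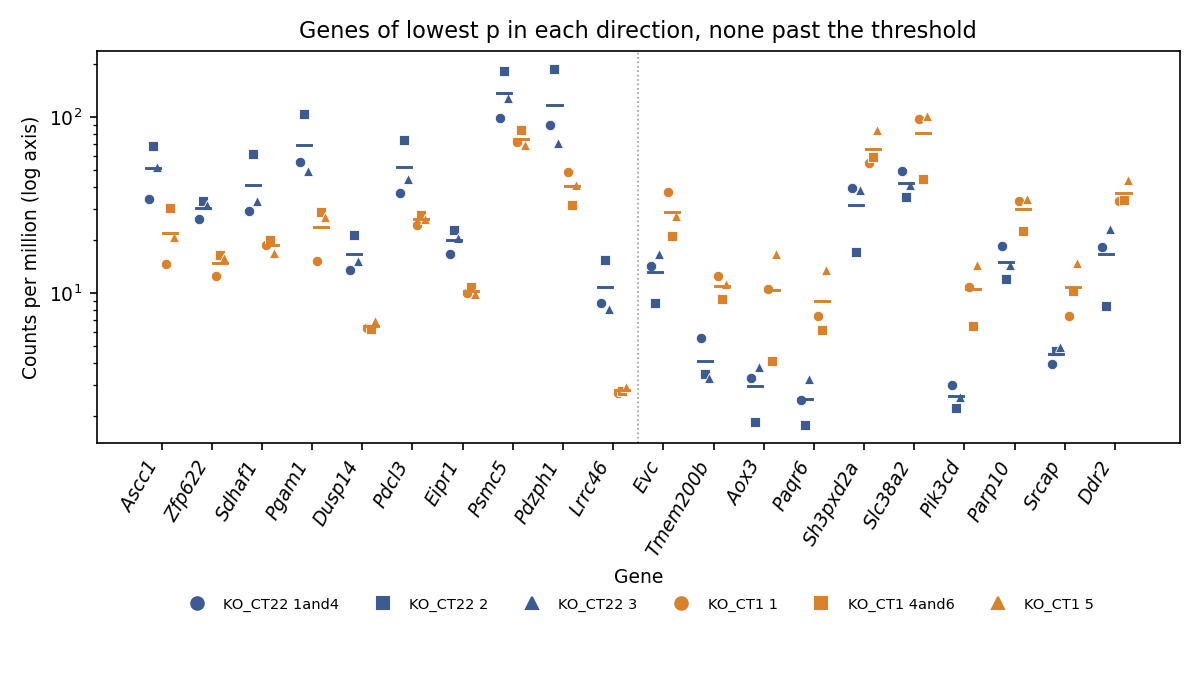
CPM (log axis) in the 6 mutant libraries for the 10 genes of lowest p that lay lower at CT1 (left of the dotted line) and the 10 that lay higher (right), CT22 in blue and CT1 in orange, lines at group means. Groups do not overlap in 19 of the 20 genes, all but Slc38a2, and no gene passed the threshold. The genes were picked by p from these same libraries, so the separation is no separate support. Over all genes, 6.11% had all CT1 libraries above and 9.90% had all below.

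Receptors and ligands with which the RPE recognises outer segments mostly had overlapping groups. Of 15 tested, 0 passed, and 1 was higher and 2 lower at an unadjusted p under 0.05, against 5.81% and 10.9% of all genes. Mertk, the receptor kinase that triggers engulfment, was at 213, 122.8 and 222 CPM at CT22 and 212, 206 and 193 CPM at CT1, log2 0.13 (95% interval -0.28 to 0.55). Its ligand Gas6 was at log2 -0.05 (95% interval -0.47 to 0.37), and the integrin subunits Itgav and Itgb5 that bind outer segments were at log2 0.24 (95% interval -0.55 to 1.03) and log2 -0.06 (95% interval -0.57 to 0.45). Mfge8, the bridging ligand of that integrin, was at 80.3, 118.9 and 83.5 CPM at CT22 and 82.7, 89.5 and 80.0 CPM at CT1, log2 -0.17 (95% interval -0.55 to 0.22), highest in KO_CT22 replicate 2. The other libraries lay close together. Axl, a receptor related to Mertk, was at 19.4, 9.86 and 20.1 CPM at CT22 and 24.9, 30.9 and 42.4 CPM at CT1, log2 1.00 (SE 0.30; adjusted p 0.138), with groups that did not overlap. The bridging protein Tulp1, which photoreceptors also make, was at 1268, 2583 and 915 CPM at CT22 and 715, 658 and 684 CPM at CT1, log2 -1.21 (SE 0.38; adjusted p 0.141), and came to log2 -0.15 with the rod covariate. Its paralog Tub was at log2 -0.77 (SE 0.35; adjusted p 0.2797) and log2 0.17 with the covariate.

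Downstream of the receptors, 0 of 19 engulfment genes passed and 3 lay higher at an unadjusted p under 0.05, against 5.81% of all genes. Myo7a, the myosin that moves phagosomes and melanosomes (ENSMUSG00000030761; minus strand of chromosome 7 from 98051060 to 98119524, GRCm38), was at 294, 133.8 and 222 CPM at CT22 and 306, 375 and 439 CPM at CT1, log2 0.78 (SE 0.23; adjusted p 0.137). Its CT1 libraries lay above all CT22 libraries, and the difference was log2 0.55 without KO_CT22 replicate 2 and log2 0.57 with the rod covariate. It passed under 4 of 16 alternative settings. Wild type lay the other way at log2 -0.70, and the difference between genotypes passed at log2 1.48 (SE 0.33; adjusted p 0.0114). Myo7a was named for its low p in the mutant, whose difference is part of that test, so it is no separate support. Itpr1, the calcium release channel, was at 266, 117.8 and 241 CPM at CT22 and 283, 338 and 263 CPM at CT1, log2 0.50 (SE 0.22; adjusted p 0.256), and the calcium channel Cacna1d at 14.7, 8.77 and 12.8 CPM at CT22 and 21.4, 16.6 and 17.2 CPM at CT1, log2 0.61 (SE 0.29; adjusted p 0.281). Itpr1 came to log2 0.24 without KO_CT22 replicate 2 and log2 0.20 with the rod covariate, and Cacna1d to log2 0.45 and log2 0.25. The list median was log2 0.03, near that of all genes.

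Genes of the phagosome and lysosome had a median of log2 -0.08, with 0 of 35 passing, 1 higher and 5 lower at an unadjusted p under 0.05 (all genes 5.81% and 10.9%). Of the 5 lower members, 3 were subunits of the proton pump that acidifies the lysosome. Atp6v1b2 was at 303, 495 and 349.5 CPM at CT22 and 274, 260.4 and 226 CPM at CT1, log2 -0.59 (SE 0.19; adjusted p 0.144), Atp6v1h at log2 -0.58 (SE 0.19; adjusted p 0.150) and Atp6v0d1 at log2 -0.50 (SE 0.17; adjusted p 0.156). With the rod covariate these stood at log2 -0.31, log2 -0.56 and log2 -0.41. Mreg, which the RPE uses to degrade phagosomes, was at 30.3, 84.0 and 27.5 CPM at CT22 and 24.2, 18.4 and 25.5 CPM at CT1 and at log2 0.02 with the covariate, against log2 -1.06 without it. Autophagy genes, part of which conjugate LC3 to phagosomes, had a median of log2 -0.22 with 0 of 24 passing, 1 higher and 6 lower against the same shares. Gabarapl1, an LC3 relative, was at 242, 431 and 234 CPM at CT22 and 188, 182 and 177 CPM at CT1, log2 -0.73 (SE 0.22; adjusted p 0.1403), and Gabarapl2 at log2 -0.74 (SE 0.25; adjusted p 0.165). KO_CT22 replicate 2 was the highest of the 6 libraries in 12 of the 24 autophagy genes, and without it 1 gene was lower and 1 higher at an unadjusted p under 0.05 (2.86% and 1.97% of all genes in that fit).

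Visual cycle genes showed no member past even an unadjusted p of 0.05, 0 of 13, at a median of log2 -0.09. Rpe65, the retinoid isomerase, was at 4269.7, 3923 and 6764 CPM at CT22 and 4002, 5640.2 and 3711 CPM at CT1, log2 -0.16 (95% interval -0.77 to 0.45). Rlbp1, the retinaldehyde-binding protein, was at 1887, 1982 and 4283 CPM at CT22 and 2129, 3196 and 1990.4 CPM at CT1, log2 -0.16 (95% interval -0.86 to 0.55). KO_CT22 replicate 3 was the highest library for both. Lrat, the retinol acyltransferase, was at log2 0.27 (95% interval -0.43 to 0.96) and Rgr, the RPE retinal G protein-coupled receptor, at log2 0.10 (95% interval -0.52 to 0.72). RPE identity genes had a median of log2 -0.03, with 2 of 25 higher at an unadjusted p under 0.05, the transcription factor Mitf at 97.5, 52.4 and 83.2 CPM at CT22 and 89.7, 110.99 and 119.1 CPM at CT1, log2 0.46 (SE 0.21; adjusted p 0.275), and Cdh1 at log2 0.93 (SE 0.43; adjusted p 0.275). Melanin and melanosome genes stood at log2 0.05, with 2 of 17 higher, Mitf and Mlph, the melanosome linker to myosin, at 62.1, 27.8 and 54.0 CPM at CT22 and 64.8, 67.3 and 139 CPM at CT1, log2 0.92 (SE 0.34; adjusted p 0.188). Higher members made up 5.81% of all genes at that level. These lists stood lower with the rod covariate: the visual cycle median was log2 -0.41 with 3 of 13 lower at an unadjusted p under 0.05, RPE identity log2 -0.33 with 5 of 25 lower and melanin log2 -0.27 with 1 of 17 lower, against 4.69% of all genes in that fit, and 0 passed. Without KO_CT22 replicate 2 the 3 medians were log2 -0.23, -0.18 and -0.10, with no member at that level.

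Ion and water transport genes had a median of log2 0.11, with 0 of 20 passing, 1 higher and 1 lower at an unadjusted p under 0.05 (5.81% and 10.9% of all genes). Car2, a carbonic anhydrase that retina also makes, was at 218 ± 133.8 CPM (SD, n = 3) at CT22 and 91.5 ± 10.6 CPM at CT1 with groups that did not overlap, log2 -1.25 (SE 0.40; adjusted p 0.150), and at log2 -0.14 with the rod covariate. Clcn2, a chloride channel of the RPE, was at 239, 135 and 192 CPM at CT22 and 242, 259.6 and 296 CPM at CT1, log2 0.49 (SE 0.21; adjusted p 0.230). Its CT1 libraries sat above its CT22 libraries, narrowly. Aqp1, a water channel, was at log2 -0.36 (95% interval -0.78 to 0.05). Among 20 adhesion and junction genes the median was log2 0.09 and 2 were higher at that level (5.81% of all genes). Cldn19, a tight junction claudin of the RPE, was at 0, 0.136 and 0 CPM at CT22 and 2.51, 0.765 and 2.09 CPM at CT1; at so few counts its fitted fold is not given.

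Nuclear genes of oxidative phosphorylation lay lower at CT1 almost as a body, though none passed. Of 76, 75 were below 0, 39 were lower and 0 higher at an unadjusted p under 0.05 (10.9% and 5.81% of all genes), and the median was log2 -0.41 against -0.02 over all genes. Ndufa9 of complex I was at 54.4, 86.9 and 83.3 CPM at CT22 and 46.2, 54.4 and 42.3 CPM at CT1, log2 -0.65 (SE 0.16; adjusted p 0.135). Cox5a of complex IV was at 48.8, 96.9 and 64.0 CPM at CT22 and 43.8, 38.9 and 37.2 CPM at CT1, log2 -0.81 (SE 0.21; adjusted p 0.135). Uqcrfs1, the iron-sulfur subunit of complex III, was at 83.5, 137 and 129.01 CPM at CT22 and 78.1, 79.6 and 60.4 CPM at CT1, log2 -0.68 (SE 0.18; adjusted p 0.135). Groups overlapped for Ndufa9 and not for Cox5a and Uqcrfs1, and over the list all CT1 libraries were below in 10 of 76, near the 9.90% of all genes. KO_CT22 replicate 2, the library with the most rod RNA, was the highest of the 6 in 60 of the 76 genes. Without it the median was log2 -0.18 with 6 lower and 1 higher (2.86% and 1.97% of all genes), and with the rod covariate it was log2 -0.26 with 9 lower and 0 higher at an unadjusted p under 0.05, against 4.69% and 2.42% of all genes in that fit. Messenger RNAs of the mitochondrial genome did not share this position: 10 of 12 lay above 0, none past an unadjusted p of 0.05, at a median of log2 0.09.

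Glycolysis genes lay lower too, with 0 of 22 passing, 13 lower and 2 higher at an unadjusted p under 0.05 (10.9% and 5.81% of all genes) and a median of log2 -0.46. Beside Pgam1, described above, Ldha, which makes lactate, was at 685, 1318 and 484 CPM at CT22 and 425, 333 and 310.3 CPM at CT1, log2 -1.22 (SE 0.36; adjusted p 0.137). Aldoc, an aldolase, was at 220.1, 362 and 238 CPM at CT22 and 142.8, 143.5 and 143.5 CPM at CT1, log2 -0.93 (SE 0.28; adjusted p 0.137), with 3 CT1 libraries close together. Hk2, a hexokinase of photoreceptors, was at 536, 681 and 316 CPM at CT22 and 301, 287 and 277 CPM at CT1, log2 -0.83 (SE 0.34; adjusted p 0.228). Every CT1 library lay below every CT22 library in these 3 genes. The 2 members on the other side were Hkdc1, a hexokinase-like gene, at 23.2, 15.3 and 21.7 CPM at CT22 and 35.3, 29.5 and 21.7 CPM at CT1, log2 0.52 (SE 0.21; adjusted p 0.204), and Gapdh at 10.3, 6.86 and 5.30 CPM at CT22 and 12.3, 11.7 and 22.6 CPM at CT1, whose reads may be shared with its many copies. Slc2a1, the glucose transporter GLUT1, was at 1052, 958 and 1721 CPM at CT22 and 1120.4, 1348 and 830.0 CPM at CT1, log2 -0.18 (95% interval -0.70 to 0.35). KO_CT22 replicate 2 was highest in 15 of the 22, and without it 2 were lower and 1 higher (2.86% and 1.97% of all genes) at a median of log2 -0.33. With the rod covariate Ldha was at log2 -0.23, Pgam1 at log2 -0.85, and the list median at log2 -0.13.

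Fatty acid oxidation and ketogenesis, by which the RPE is known to burn outer segment lipid, had a median of log2 -0.17 with 0 of 29 passing. At an unadjusted p under 0.05, 0 were higher and 3 lower (5.81% and 10.9% of all genes). Bdh1, the ketone body dehydrogenase, was at 29.6, 45.7 and 35.4 CPM at CT22 and 23.4, 27.3 and 19.7 CPM at CT1, log2 -0.66 (SE 0.19; adjusted p 0.137). Etfb, an electron carrier of fatty acid oxidation, was at log2 -0.48 (SE 0.19; adjusted p 0.200), and Hadhb, of the mitochondrial trifunctional protein, at log2 -0.46 (SE 0.19; adjusted p 0.219). The 3 genes remained below 0 with the rod covariate, at log2 -0.37, log2 -0.58 and log2 -0.66. In that fit 8 of the 29 genes were at an unadjusted p under 0.05, counted in either direction, against 7.11% of all genes. Cholesterol synthesis and uptake had a median of log2 0.10 with 1 of 23 higher, Tm7sf2, a sterol reductase, at 20.2, 11.2 and 13.7 CPM at CT22 and 33.2, 18.9 and 31.7 CPM at CT1, log2 0.90 (SE 0.23; adjusted p 0.135), and 1 lower, Pmvk, at log2 -0.57 (SE 0.20; adjusted p 0.174). Of 10 cholesterol efflux genes none was past an unadjusted p of 0.05.

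Cytosolic ribosomal protein genes had a median of log2 -0.44, with 0 of 62 passing and 24 lower and 0 higher at an unadjusted p under 0.05, against 10.9% and 5.81% of all genes. Rpl8 was at 309.9, 658 and 352 CPM at CT22 and 282, 272 and 232 CPM at CT1, log2 -0.75 (SE 0.23; adjusted p 0.137), and Rpl7 at 150.01, 384 and 173 CPM at CT22 and 150.3, 119.5 and 143.2 CPM at CT1, log2 -0.77 (SE 0.24; adjusted p 0.142). KO_CT22 replicate 2 was the highest library in 58 of the 62. Without it the median was log2 -0.01, with 0 lower and 1 higher (2.86% and 1.97% of all genes). With the rod covariate it was log2 -0.07 with 0 past an unadjusted p of 0.05 (7.11% of all genes). Pseudogene copies can take reads of these genes.

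Heat shock genes had a median of log2 -0.36, with 0 of 20 passing and 5 lower at an unadjusted p under 0.05, against 10.9% of all genes. Dnajb1, a co-chaperone induced by heat, was at 61.2, 95.2 and 56.9 CPM at CT22 and 35.9, 36.7 and 47.5 CPM at CT1, log2 -0.83 (SE 0.21; adjusted p 0.135). Hsp90aa1, the inducible HSP90, was at 1036, 1452 and 1095 CPM at CT22 and 852, 788 and 690.3 CPM at CT1, log2 -0.62 (SE 0.20; adjusted p 0.144). Both had groups that did not overlap, and both stayed below 0 with the rod covariate, at log2 -0.61 and log2 -0.37. Immediate early genes, which respond within minutes to stimulation, had 6 of 27 lower at that level and none higher (all genes 10.9% and 5.81%), at a median of log2 -0.01, and with the rod covariate 1 of 27 was lower. Fos was at 15.3, 13.3 and 9.18 CPM at CT22 and 5.82, 4.14 and 7.89 CPM at CT1, log2 -1.08 (SE 0.42; adjusted p 0.199), and Ier2 at 14.4, 18.1 and 15.8 CPM at CT22 and 9.52, 8.32 and 10.2 CPM at CT1, log2 -0.78 (SE 0.26; adjusted p 0.156). For both, every CT1 library lay below every CT22 library.

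Genes induced by glucocorticoids, whose daily surge in mice precedes the dark phase, had 0 of 16 passing, 1 higher and 2 lower at an unadjusted p under 0.05 (all genes 5.81% and 10.9%), at a median of log2 -0.19. Klf9, a glucocorticoid-induced transcription factor, was at 131.9, 163 and 144 CPM at CT22 and 88.3, 87.8 and 101 CPM at CT1, log2 -0.66 (SE 0.20; adjusted p 0.137), and Ddit4 at 92.2, 127.1 and 112.3 CPM at CT22 and 89.6, 76.5 and 88.7 CPM at CT1, log2 -0.38 (SE 0.16; adjusted p 0.223). Fkbp5, the receptor's co-chaperone, was at log2 -0.48 (95% interval -1.13 to 0.18), and Tsc22d3 at log2 -0.05 (95% interval -0.42 to 0.33). Cdkn1a, the p21 inhibitor of the cell cycle, was at 1.79, 1.36 and 4.02 CPM at CT22 and 10.4, 5.71 and 4.90 CPM at CT1, log2 1.55 (SE 0.43; adjusted p 0.137), higher in each CT1 library than in any CT22 library. The cell cycle list had no common direction, with 8 of 16 genes above 0 and 8 below, a median of log2 0.03 and 0 passing. Groups did not overlap in 2 that lay higher and 3 that lay lower, against 6.11% and 9.90% of all genes. Among the lower ones were the replication factors Pcna at log2 -0.82, or log2 -0.48 without KO_CT22 replicate 2 and log2 -0.37 with the rod covariate, and Mcm2 at log2 -0.80.

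Antioxidant genes had a median of log2 -0.20, with 0 of 26 passing, 1 higher and 4 lower at an unadjusted p under 0.05 (all genes 5.81% and 10.9%). Prdx2, a peroxiredoxin, was at 140.3, 226 and 196 CPM at CT22 and 131.3, 117.8 and 110.6 CPM at CT1, log2 -0.64 (SE 0.17; adjusted p 0.135), and its mitochondrial relative Prdx5 at 131.3, 189 and 194 CPM at CT22 and 120.6, 125.6 and 100.2 CPM at CT1, log2 -0.57 (SE 0.18; adjusted p 0.141). With the rod covariate both were at log2 -0.52 and log2 -0.57. ER stress genes had a median of log2 0.18 with 2 of 20 higher, Chac1 and Trib3, each led by KO_CT1 replicate 1. Trib3, a pseudokinase of the integrated stress response, was at 3.92, 3.68 and 1.94 CPM at CT22 and 17.7, 2.11 and 5.62 CPM at CT1, with overlapping groups. Interferon-induced genes had a median of log2 0.12 with 1 of 23 higher, the signalling factor Stat2 at log2 0.49, and 1 lower, Ifit1, at 7.38, 5.59 and 6.48 CPM at CT22 and 3.63, 2.56 and 2.06 CPM at CT1, log2 -1.24 (SE 0.45; adjusted p 0.182). Of the 4 cold-inducible genes none was past an unadjusted p of 0.05.

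**Figure D5:**
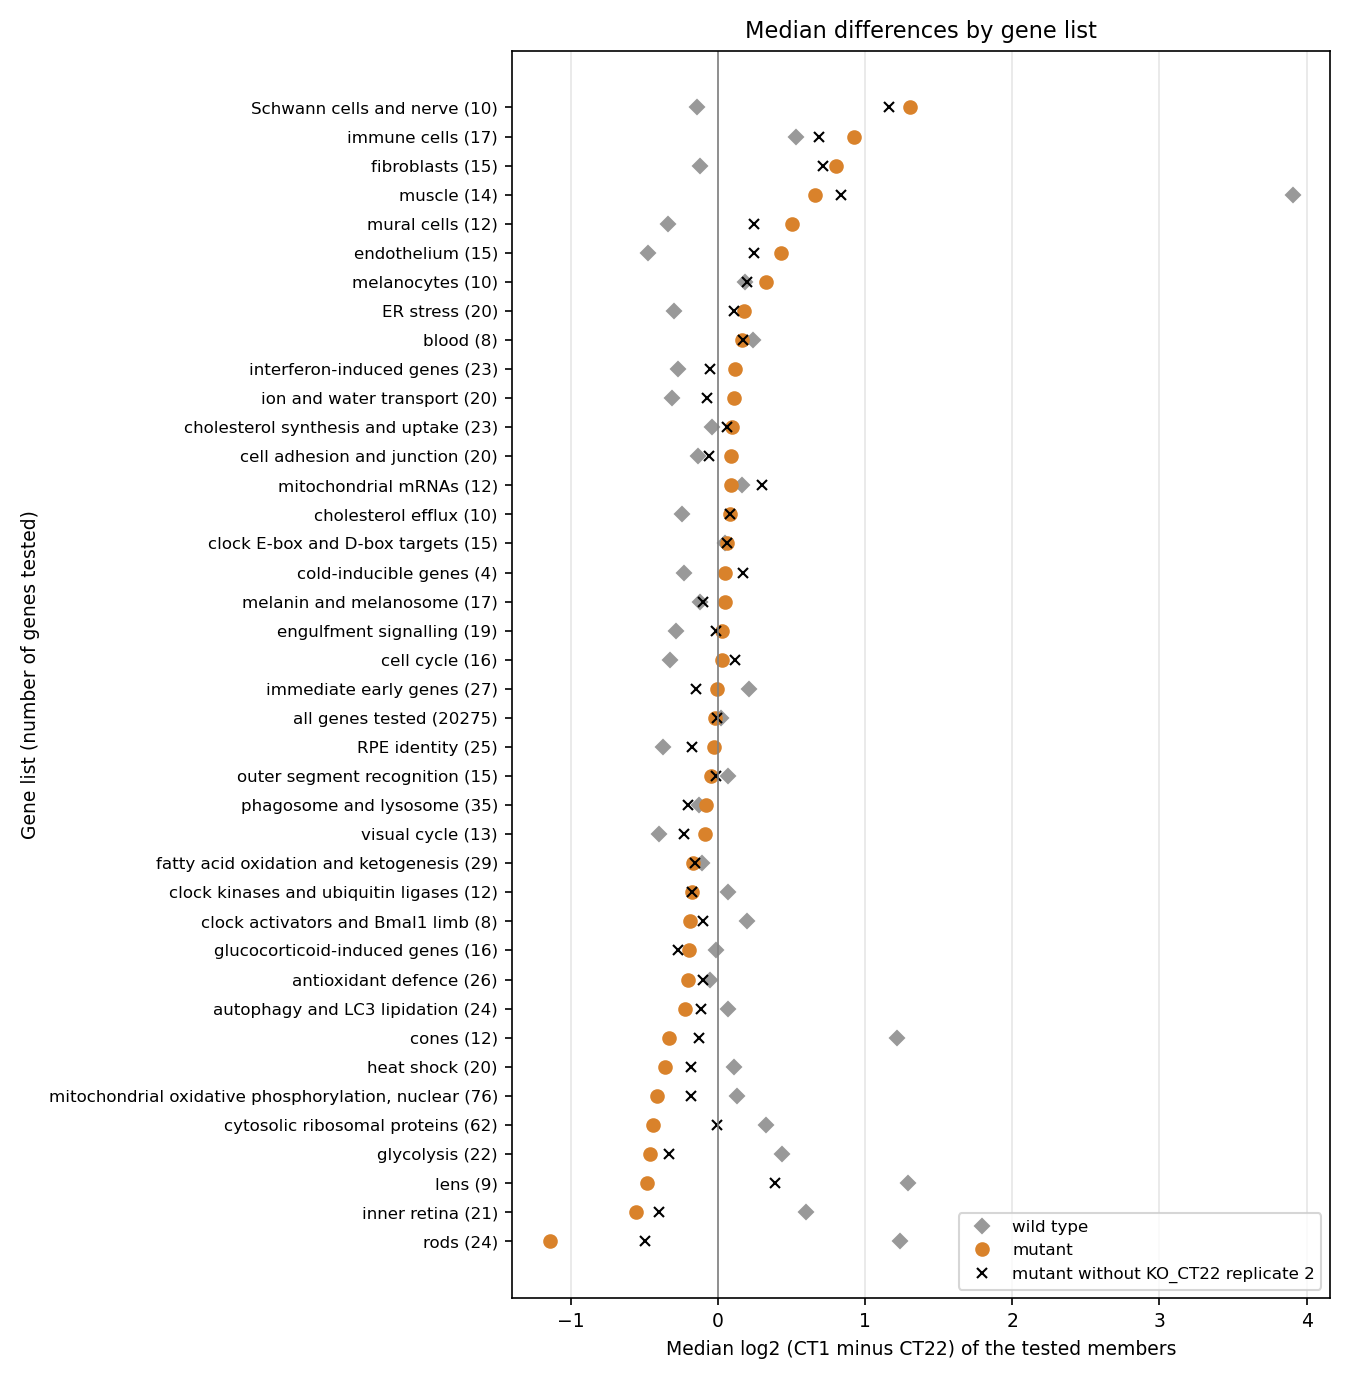
Median log2 difference, CT1 minus CT22, over the tested members of each gene list (number in brackets) in the mutant (orange circles), in the mutant without KO_CT22 replicate 2 (crosses) and in wild type (grey diamonds). Rods are lowest in the mutant at log2 -1.14, all genes stand at -0.02, and leaving out KO_CT22 replicate 2 brings ribosomal protein genes to -0.01.

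Rod genes had the lowest median of all lists, log2 -1.14, with 0 of 24 passing, 18 lower and 0 higher at an unadjusted p under 0.05 (10.9% and 5.81% of all genes) and 14 with all CT1 libraries below (9.90% of all genes). Nrl, the transcription factor that sets rod fate, was at 1467, 3707 and 1175 CPM at CT22 and 916, 745 and 831 CPM at CT1, log2 -1.35 (SE 0.39; adjusted p 0.137). Gnat1, rod transducin, was at 17415, 35970 and 11339 CPM at CT22 and 10395, 8596 and 9875 CPM at CT1, log2 -1.16 (SE 0.40; adjusted p 0.167). Every CT1 library lay below every CT22 library for both. Abca4, the retinoid flippase of outer segment discs, was at 742, 788 and 709 CPM at CT22 and 748, 849.9 and 688 CPM at CT1, log2 0.03 (95% interval -0.44 to 0.50), and Slc24a1, the rod exchanger, was at 1458, 1662 and 1576 CPM at CT22 and 1175, 1657 and 1283 CPM at CT1, log2 -0.19 (95% interval -0.62 to 0.24). Rpgrip1, of the connecting cilium, was at log2 -0.30. KO_CT22 replicate 2 was the highest library in 23 of the 24, the rod median was log2 -0.49 without it with 0 lower at an unadjusted p under 0.05, and -1.32 without KO_CT22 replicate 1and4. With the rod score as a covariate, which is built from these genes, it was log2 -0.05.

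Part of the rod promoters hold letters that the choice of the list did not use. The binding sequence of the photoreceptor factor CRX, TAATCC on either strand, was found in 8 of 16 rod promoters in the RefSeq table, against 6.74% of tested genes, and the other 8 rod genes were not in that table. Crx itself (chr7:15879956-15880205, minus strand) and Guca1a, a cyclase activator (chr17:47400607-47400856, minus strand), are printed as examples, on GRCm38.p6 with matches in capitals; here they read GGATTA, the opposite strand of TAATCC.
Crx: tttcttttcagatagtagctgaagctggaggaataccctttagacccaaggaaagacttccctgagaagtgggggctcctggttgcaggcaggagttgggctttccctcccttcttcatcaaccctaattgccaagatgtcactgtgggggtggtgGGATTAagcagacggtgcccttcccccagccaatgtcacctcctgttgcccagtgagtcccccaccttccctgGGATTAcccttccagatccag
Guca1a: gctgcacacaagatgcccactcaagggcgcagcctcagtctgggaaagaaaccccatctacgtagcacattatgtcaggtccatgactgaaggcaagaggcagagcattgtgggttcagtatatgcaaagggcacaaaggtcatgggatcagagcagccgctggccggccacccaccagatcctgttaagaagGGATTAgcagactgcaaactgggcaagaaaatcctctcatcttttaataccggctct
Crx has matches at 94 and 21 bases before the start site and was at 912, 1855 and 625 CPM at CT22 and 515, 450.3 and 499 CPM at CT1, log2 -1.21 (SE 0.37; adjusted p 0.141). Guca1a has 1 at 57 bases and was at 409.8, 1034 and 304 CPM at CT22 and 232, 179.8 and 229 CPM at CT1, log2 -1.45 (SE 0.44; adjusted p 0.141). The groups did not overlap for either gene. Among the 10 genes of lowest p lower at CT1, 1 of 8 with a promoter in the table held this sequence, Ascc1.

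Markers of other retinal cells had medians below 0, with counts of lower members less clearly apart from all genes (10.9%). Cone genes had a median of log2 -0.33 with 2 of 12 lower at an unadjusted p under 0.05, Guca1a, which is also on the rod list, and Pde6h at 15.1, 59.0 and 26.3 CPM at CT22 and 14.2, 6.30 and 11.4 CPM at CT1, log2 -1.65 (SE 0.57; adjusted p 0.176). Inner retina genes had a median of log2 -0.55 with 2 of 21 lower, the bipolar cell gene Cabp5 at 7.32, 26.8 and 8.14 CPM at CT22 and 6.57, 3.37 and 5.94 CPM at CT1 and Gad1, of inhibitory neurons, at 10.8, 15.5 and 10.4 CPM at CT22 and 5.60, 6.25 and 3.49 CPM at CT1. With the rod covariate the cone median was log2 0.15 and that of inner retina log2 -0.26, with no member at an unadjusted p under 0.05. Lens genes were uneven between libraries within a group: the 9 lens genes summed to 5775, 18699 and 5579.8 CPM at CT22 and 2660, 1242 and 16718 CPM at CT1.

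Markers of the choroid lay on the other side, higher at CT1. All 15 endothelial genes were above 0, with 4 at an unadjusted p under 0.05 (5.81% of all genes were higher at that level), at a median of log2 0.43. Vwf, von Willebrand factor, was at 40.1, 20.4 and 43.6 CPM at CT22 and 55.3, 65.4 and 84.4 CPM at CT1, log2 0.98 (SE 0.31; adjusted p 0.146). Mural cell genes had a median of log2 0.50, with 4 of 12 higher, among them the pericyte receptor Pdgfrb at 117.03, 61.1 and 120.7 CPM at CT22 and 124.3, 142 and 164 CPM at CT1, log2 0.53 (SE 0.22; adjusted p 0.234). KO_CT22 replicate 2 was the lowest library in 15 of 15 endothelial and 10 of 12 mural genes, and without it the medians were log2 0.24 and 0.25.

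Fibroblast genes had a median of log2 0.81, with 10 of 15 higher at an unadjusted p under 0.05, 8 of 15 with all CT1 libraries above, and 0 passing, against 5.81% and 6.11% of all genes for the first 2 counts. Col1a2, of type I collagen, was at 44.3, 29.6 and 46.3 CPM at CT22 and 61.1, 67.4 and 101 CPM at CT1, log2 0.93 (SE 0.26; adjusted p 0.137), and Col1a1 at 58.9, 37.3 and 68.9 CPM at CT22 and 73.5, 79.2 and 156 CPM at CT1, log2 0.90 (SE 0.28; adjusted p 0.141). KO_CT1 replicate 5 was highest in both. Dpt had no count in the CT22 libraries, and setting it to the bound that 3 counts over the group allow left the list median at log2 0.81. Without KO_CT22 replicate 2 the median was log2 0.72 with 5 of 15 higher (1.97% of all genes). With the rod covariate it was log2 0.40 with 1 past an unadjusted p of 0.05 (7.11% of all genes). Immune cell genes had a median of log2 0.93 with 7 of 17 higher and none lower. Lyz2, lysozyme of myeloid cells, was at 15.3, 24.2 and 30.4 CPM at CT22 and 34.6, 61.6 and 110.0 CPM at CT1, log2 1.56 (SE 0.58; adjusted p 0.198), and Cd74, the class II invariant chain, at 27.2, 29.5 and 61.9 CPM at CT22 and 67.4, 74.9 and 67.3 CPM at CT1, log2 0.82 (SE 0.43; adjusted p 0.347). Their CT1 libraries all lay above their CT22 libraries. Genes of Schwann cells and nerve had the highest median of the lists, log2 1.31, with 3 of 10 higher and 0 passing. Their median was log2 1.16 without KO_CT22 replicate 2 and log2 1.25 with the rod covariate. In the covariate fit 2 were higher and 1 lower at an unadjusted p under 0.05 (2.42% and 4.69% of all genes). Several members were near 0 CPM in every library. Their summed level ran from 171.6 to 289 CPM at CT22 and from 234 to 326 CPM at CT1, so the groups overlapped. With the rod covariate the endothelial median was log2 -0.13 and the immune median log2 0.46. In that fit 0 of the 17 immune genes were at an unadjusted p under 0.05 (7.11% of all genes). The part of these cells in the differences of other genes was not tested beyond the covariate fits, which cannot fully separate it from time.

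The dawn difference of the mutant was set against that of wild type, with no library shared between the 2 differences. In wild type 57 of 20275 genes passed (0.281%), 53 higher (0.261%) and 4 lower (0.0197%) at CT1. The difference between genotypes passed for 1526 genes (7.53%), 325 with the mutant difference above that of wild type (1.60%) and 1201 below (5.92%). The log2 differences of the 2 genotypes had opposite signs in 65.2% of genes, and across genes they correlated at a Pearson coefficient of -0.151 and a Spearman rank coefficient of -0.312, a description over genes, which are not independent. Of the rod genes, 21 of 24 were among those below, all but Slc24a1, Abca4 and Rpgrip1. With the rod score as a covariate 0 genes passed for this difference (1130 at an unadjusted p under 0.05), with the choroid score 1 passed, and without KO_CT22 replicate 2 the count was 57. Rod scores did not overlap between the times in either genotype, nor did choroid scores in the mutant. The covariate fits therefore cannot fully separate cell content from time. With genes of at least 5 CPM on average it was 1797, 803 above and 994 below.

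Of the 57 genes that passed in wild type, 0 passed in the mutant, where 0% of all genes did. In 53 the mutant sign was opposite, against 65.2% of all genes, and 19 of these were at an unadjusted p under 0.05. Over all genes 16.7% were at that level in the mutant, counted in either direction. The 53 higher in wild type had a median of log2 1.62 there and -0.53 in the mutant. Among them Rdh12, a photoreceptor retinol dehydrogenase, was at 67.05, 149 and 50.5 CPM at CT22 and 40.7, 50.9 and 64.0 CPM at CT1 in the mutant, log2 -0.78, against log2 2.23 in wild type. Cadm1, an adhesion molecule, was at 48.1, 85.4 and 36.4 CPM at CT22 and 35.6, 46.3 and 61.4 CPM at CT1, log2 -0.25 (95% interval -0.77 to 0.28), against log2 2.08. The opposite sign of these 2 genes depended on the setting: without KO_CT22 replicate 2 Rdh12 was at log2 -0.16 and Cadm1 at log2 0.20, and with the rod covariate they were at log2 0.23 and log2 0.31. Svop, a synaptic vesicle protein, was at 14.99, 20.9 and 10.6 CPM at CT22 and 8.55, 8.99 and 10.6 CPM at CT1, log2 -0.73, with groups that touched but did not overlap, against log2 2.09, and came to log2 0.02 with the rod covariate. The 4 genes lower in wild type lay above 0 in the mutant, though Gdpd2 came to log2 -0.06 without KO_CT22 replicate 2. Hkdc1 was at log2 0.52 against log2 -1.05, with a genotype difference of log2 1.58 (SE 0.29; adjusted p 0.00724). The 4 genes were picked for their wild type difference, which is part of the genotype test, so that value is no separate support. Itga7, an integrin subunit of muscle and mural cells, was at 33.9, 17.7 and 35.3 CPM at CT22 and 39.7, 54.3 and 52.3 CPM at CT1 in the mutant, log2 0.75 (SE 0.21; adjusted p 0.137), with groups that did not overlap, against log2 -0.94 in wild type. Gria3, a glutamate receptor subunit, was at log2 0.45 (95% interval -0.02 to 0.91) in the mutant, or log2 0.08 with the rod covariate, against log2 -1.05.

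Calb2 and Eef1a2, both genes of neurons, are described as examples from the largest negative genotype differences by log2. Larger ones in that direction included Gm48505 (log2 -4.46), C430042M11Rik (log2 -4.42) and B3gat1 (log2 -3.89). Calb2, calretinin of inner retinal neurons, was at 12.2, 18.5 and 11.2 CPM at CT22 and 3.16, 4.23 and 3.79 CPM at CT1 in the mutant, against wild type means of 6.40 ± 2.89 CPM (SD, n = 3) at CT22 and 18.4 ± 17.5 CPM at CT1. Eef1a2, the elongation factor of neurons, was at 15.9, 27.8 and 12.9 CPM at CT22 and 6.57, 8.81 and 5.23 CPM at CT1 in the mutant, against 9.29 ± 5.46 and 31.9 ± 18.2 CPM. In both genes every mutant CT1 library lay below every mutant CT22 library, and the genotype differences were log2 -3.43 (SE 0.87; adjusted p 0.0238) and log2 -3.24 (SE 0.73; adjusted p 0.0143). On the positive side Edn1, the vasoconstrictor endothelin 1, was at 1.499, 2.50 and 5.82 CPM at CT22 and 4.96, 9.26 and 13.2 CPM at CT1 in the mutant, with overlapping groups, against 7.78 ± 3.96 and 3.27 ± 1.05 CPM in wild type, log2 2.72 (SE 0.66; adjusted p 0.0157). Gjb6, a connexin, was at 4.27, 3.09 and 4.78 CPM at CT22 and 14.7, 8.81 and 14.96 CPM at CT1, against 9.74 ± 1.21 and 5.94 ± 2.28 CPM, log2 2.37 (SE 0.63; adjusted p 0.0241). All mutant CT1 libraries were above all mutant CT22 libraries for Gjb6. With the rod covariate the mutant differences were log2 -1.19 for Calb2, log2 -0.64 for Eef1a2, log2 1.12 for Edn1 and log2 1.22 for Gjb6.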

How the data were processed

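RNA sequencing libraries of laser-captured retinal pigment epithelium were analysed from the raw read counts per gene deposited by the authors. The tools named, per the submitters' processing notes, are HISAT2 2.1.0, HTSeq 0.11, Trimmomatic 0.32 and Cufflinks, on GRCm38.p6. Their order, the gene annotation used and whether counting used strand are not given in the sources used here. The table held 54232 identifiers, of which 153 had no symbol and 98 shared one. Genes were kept by edgeR's filterByExpr with a minimum count of 10, which left 20275. Counts were scaled by TMM and fitted with edgeR 4.0.16 (R 4.3.3, limma 3.58.1), robust quasi-likelihood, 8 group means over 24 libraries and 16 residual degrees of freedom. Adjusted p is Benjamini-Hochberg over all genes, with a threshold of 0.05, and intervals are 95%. DESeq2 1.42.0 was an alternative, as were other scaling and filters, rod or choroid scores as covariates (mean log2(CPM + 1), pseudocount 1) and leaving out libraries. The scripts were tested on simulated data.

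Members and gene lists were chosen with earlier results of these data known, and no list is independent support for a direction. Named genes were those passing in the mutant, filled up to 10 in each direction with the lowest p at a mean of at least 5 CPM, the members of both core clock lists, up to 4 of lowest p in each other list and up to 8 of the largest in each direction in the genotype and wild type comparisons. Mertk, Gas6, Itgav, Itgb5, Mfge8, Rpe65, Rlbp1, Lrat, Rgr, Slc2a1, Fkbp5, Tsc22d3, Abca4, Slc24a1, Rpgrip1, Gnat1, Crx, Hk2, Gapdh, Cd74 and Stat2 fall outside that rule and were chosen after their values were seen. Replicates in the mutant groups differed by more than sampling noise. Some genes that this rule names are not reported here.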

Additional observations from a re-analysis of the deposited data

Results flagged for a closer look

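The CT1 minus CT22 difference was set apart between mutant and wild type by a test of the difference itself, edgeR's quasi-likelihood interaction term, in 1526 genes. Values are the log2 difference of the mutant minus that of wild type, each past the adjusted threshold of 0.05 with 3 libraries in each group.

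The difference between genotypes passed in 7.53% of all genes. The genes of lowest p in the mutant were picked for their mutant difference, which is part of this test, so their values here are no separate support. The 10 lower at CT1 had Ascc1 (-1.53), Zfp622 (-1.31), Sdhaf1 (-1.91), Pgam1 (-2.64), Dusp14 (-2.13), Pdcl3 (-1.41), Eipr1 (-1.11), Psmc5 (-1.30), Pdzph1 (-3.08) and Lrrc46 (-2.65). Of those higher at CT1, 4 passed: Evc (1.48), Tmem200b (2.44), Aox3 (2.58) and Sh3pxd2a (1.56). Among the core clock genes these were Usp2 (-1.77), Nr1d1 (-1.04), Arntl (-1.45) and Rorb (-1.28), all negative.

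Genes that passed as higher at CT1 in wild type had negative values: Sez6 (-2.74), Rdh12 (-3.01), Cacna1f (-2.29), Rbp3 (-2.40), Svop (-2.82), Cadm1 (-2.32) and Nacad (-2.48). The 4 that passed as lower there had positive values: Gdpd2 (1.63), Hkdc1 (1.58), Gria3 (1.495) and Itga7 (1.70). Both sets were picked for their wild type difference, which is part of this test. Their signs and passing here are therefore no separate support. The other large positive values were A830036E02Rik (3.61), Edn1 (2.72), Gjb6 (2.37), Gm3764 (2.29), Slco2a1 (2.28) and Sspo (2.25), and the other large negative ones Gm48505 (-4.46), C430042M11Rik (-4.42), B3gat1 (-3.89), Calb2 (-3.43), Vsnl1 (-3.26), Eef1a2 (-3.23), Cfap61 (-3.18) and E130218I03Rik (-3.17). The rod sums lay lower at CT1 in the mutant and higher at CT1 in wild type. Their part in these values was not tested beyond the covariate fit, in which 0 genes passed (1130 at an unadjusted p under 0.05). Rod scores did not overlap between the times in either genotype, so that fit cannot fully separate rod content from time.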

How the results depend on the processing

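For the mutant comparison, 0 genes passed in edgeR, and also with RLE scaling, genes of at least 5 CPM, dispersion not robust, either covariate, only the 12 mutant libraries or only the 6. The count was 972 with no filter on low counts, 461 without both pooled libraries and 407 with DESeq2, where 9043 adjusted p were not given. Leaving out 1 library gave 0 to 771: 771 without KO_CT22 replicate 1and4, 147 without KO_CT22 replicate 3 and 5 without KO_CT1 replicate 4and6. For wild type, 57 became 16 with RLE scaling, 1007 with no filter, 17 at 5 CPM, 0 with the rod score (1074 at an unadjusted p under 0.05), 438 with the choroid score and 511 with DESeq2. Leaving out 1 library gave 1 to 78, with 4 without WT_CT22 replicate 1, 5 without WT_CT22 replicate 6, and 1 without WT_CT1 replicate 2 or 3and6. For the difference between genotypes, 1526 became 2384 with no filter, 0 with the rod score, 1 with the choroid score and 2410 with DESeq2. Leaving out 1 library gave 57 to 2600: 2600 without KO_CT22 replicate 1and4, 1012 without KO_CT1 replicate 1, 57 without KO_CT22 replicate 2, 671 without KO_CT1 replicate 5, 374 without WT_CT22 replicate 1, 391 without WT_CT1 replicate 2, 731 without WT_CT1 replicate 3and6 and 600 without WT_CT22 replicate 6. At 5 CPM the median of this difference moved from log2 -0.04 to 0.10 and its split from 325 positive and 1201 negative to 803 and 994. The cause of these changes was not tested. Medians of lists other than rods, cones, choroid and RPE were run under these settings after seeing the data. No paired analysis was run, since the labels do not say that an eye number shared between times marks the same animal. Both numbers that the mutant groups share, 1 and 4, also fall in 1 CT22 library (1and4). Those shared in wild type, 3 and 6, fall in 1 CT1 library (3and6), so no more than 1 pair could be formed in either genotype.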
